A study of Mus musculus with 10 samples.

Results

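The comparison described here sets naive T cells of OB11 homozygous mice that carry both coreceptors, CD4 and CD8 (DP), against naive CD4 T cells of wild-type mice (WT CD4). It rests on 2 libraries per group, 4 of the 10 libraries of the study, taken by the group named in the sample titles, and it covers all 12193 genes that passed a filter on low counts out of 34573 in the table. All cells came from spleen at 6 weeks of age and were sorted as naive T cells, by the T cell receptor beta chain and the absence of CD25 and CD44 among others, before a split on CD4 and CD8. The DP cells have the genotype OB11/OB11, and the WT CD4 cells have no engineered allele that the labels name. OB11 mice also gave cells with high CD4 (CD4hi) and low CD4 (CD4lo), and wild-type mice gave CD8 cells (WT CD8), with 2 libraries each. The mean levels of these groups are given beside the comparison as a description. The series title concerns the autoregulatory loop of ThPOK and its role in CD4 T cell identity. Which sequence the OB11 allele changes is not stated in the labels. Whether a group's libraries represent separate mice or pooled cells is also not stated. The p-values hence reflect only how far these libraries differ, which may be technical.

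ThPOK, the zinc finger protein encoded by Zbtb7b, directs thymocytes selected on MHC class II into the CD4 lineage and is kept on in mature CD4 T cells. Runx3, a DNA-binding protein of the Runt family that pairs with Cbfb, acts in the CD8 lineage, where it silences Cd4 and Zbtb7b and switches on Cd8a, Cd8b1 and genes of killing. The pair repress each other, and CD4 T cells that lose ThPOK after selection can regain CD8 and cytotoxic genes.

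Levels are CPM (counts scaled by library size) after TMM scaling, which brings the libraries to a common size, and are not corrected for gene length. They therefore compare 1 gene between libraries and not genes with each other. Where 4 levels stand in a row, the pair of WT CD4 libraries comes first and the pair of DP libraries second. Fold changes are log2(DP/WT CD4) ± SE from an edgeR quasi-likelihood fit with n = 2 libraries per group, and a gene is said to have risen or fallen where its Benjamini-Hochberg adjusted p was under 0.05 over all genes tested. By that rule 2332 genes (19.1%) differed, of which 1349 (11.1%) were higher and 983 (8.06%) lower in DP, and 917 (7.52%) differed by a fold of at least 2. The median over all genes tested was -0.0090. Counts of list members called below are to be read against these shares of 11.1% higher and 8.06% lower. A count near them is no result about the list. The libraries are called DP 1, DP 2, WT CD4 1 and WT CD4 2. Where leaving out 1 of them ended or gave a call, or moved a called fold change or a count by over 1.5 times, the value without it is given at the end of the paragraph, beside the number of alternatives that kept the call, and values in brackets there are log2 fold changes. A fold change with no count left in WT CD4 depends on the prior count of the fit and is no bound. The libraries of the groups did not overlap in 7125 genes (58.4%).

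The 4 libraries were not alike in their low counts. The second WT CD4 library had 10263 genes with 1 to 5 counts and 1525 counts in 1771 olfactory and vomeronasal receptor symbols, against 4895 genes and 163 counts in the first WT CD4 library. The first CD4hi library also stood apart, with 9801 such genes and 742 such counts, while the other 8 libraries had 4112 to 5269 genes and 104 to 260 counts. A mark L stands in the titles of WT CD4 and CD4lo and of no other group. In the present comparison mark and group cannot be told apart. All 4 L libraries lay on one side of the 6 others in 590 genes, and 363 of these were called, 15.6% of the calls. The levels of such genes are said to follow the L mark. In 1496 genes both WT CD4 libraries lay below all 8 other libraries of the study, and these hold 928, or 68.8%, of the genes higher in DP. In 1327 genes they lay above all 8, and these hold 669, or 68.1%, of the genes lower in DP. In these genes CD4hi, CD4lo and WT CD8 lay on the same side of WT CD4 as DP. DP was itself above all 8 others in 431 genes, with 215 of them called, and below all 8 in 342, with 133 called.

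**Figure D1:**
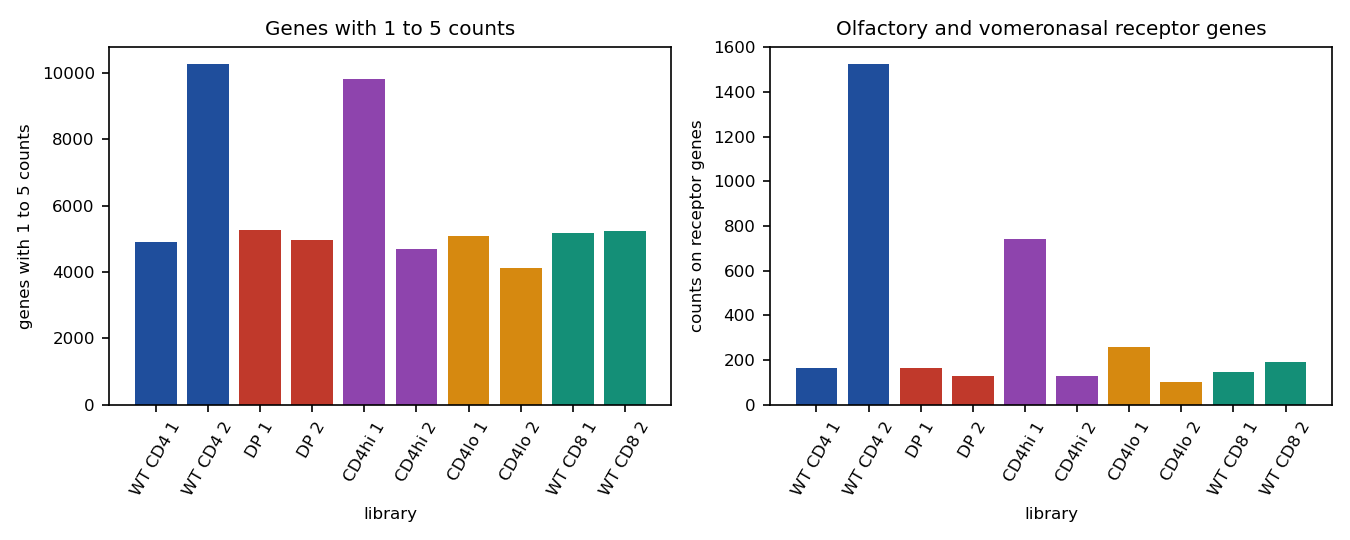
Each bar is 1 library, by group, with the number of genes holding 1 to 5 counts in one panel and the counts in 1771 olfactory and vomeronasal receptor symbols in the other. The second WT CD4 library (10263 genes, 1525 counts) and the first CD4hi library (9801 genes, 742 counts) lie above the other 8.

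Zbtb7b itself was low in DP. It lies at chr3:89377644-89394776 on the minus strand of build mm10 as a protein-coding gene. It stood at 158 and 145 CPM in WT CD4 and 7.05 and 9.18 CPM in DP, with group means of 151 ± 9.31 CPM in WT CD4 and 8.12 ± 1.5 CPM in DP (SD, n = 2). The DP libraries also lay under the CD4hi mean of 27.9 CPM and over the WT CD8 mean of 2.84 CPM. The log2 fold change was -4.21 ± 0.12 (edgeR adjusted p = 1.61e-11), the lowest of all named genes, and the call held in 14 of the 14 alternatives run. Runx3 (chr4:135120652-135177990, plus strand) moved the other way, at 131 and 119 CPM in WT CD4 and 218 and 201 CPM in DP, with no overlap (0.75 ± 0.077, adjusted p = 7.8e-06). Its WT CD8 mean was 239 CPM.

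Of 22 lineage transcription factors tested, 8 rose and 4 fell, with a median of 0.13. Zbtb7a, the closest relative of Zbtb7b, rose from 105 and 96.1 to 145 and 142 CPM (0.51 ± 0.075, adjusted p = 0.000186). Runx2 rose by 1.26 ± 0.23 and Runx1 fell, with -0.39 ± 0.089 (adjusted p = 0.00659), so the 3 Runx genes did not move together. Their shared partner Cbfb stood at 93.5 and 94.3 CPM in WT CD4 and 104 and 91.8 CPM in DP. Myb, a factor of thymocyte development, was at 23.3 and 23.8 CPM in WT CD4 and 63.6 and 56.3 CPM in DP (1.35 ± 0.12, adjusted p = 1.37e-06). Tox2, a factor of the Tox family, was at 6.04 and 6.53 CPM in WT CD4 and 14.3 and 12.1 CPM in DP (1.06 ± 0.26). Its relative Tox had 79.8 and 67.2 and 84.3 and 80.1 CPM and did not pass the test. The 4 lineage factors called lower became 2 without DP 2. Runx1 kept its call in 13 of 14 alternatives, not without DP 2 (-0.27). Tox2 kept its call in 13 of 14 alternatives, not without DP 1 (0.95).

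The pair of inhibitors of E proteins split. Id3, which restrains E proteins in naive T cells, fell from 18.7 and 17.8 to 10.5 and 10.0 CPM (-0.83 ± 0.18, adjusted p = 0.00518). Id2, the form linked to effector cells, rose from 38.4 and 35 to 51.7 and 56.5 CPM (0.56 ± 0.12, adjusted p = 0.00446). Tcf7, which encodes TCF1 and helps to turn Zbtb7b on in the thymus, fell slightly, from 1202 and 1178 to 992 and 1019 CPM (-0.24 ± 0.058, adjusted p = 0.00851). Tcf12, an E protein, rose by 0.31 ± 0.098. Gata3, which acts upstream of Zbtb7b, stood at 63.6 and 55.3 CPM in WT CD4 and 50.3 and 49 CPM in DP (adjusted p = 0.101), and Lef1 at 783 and 711 and 816 and 804 CPM. Bcl11b, Satb1, Ets1 and Ikzf1, factors of general T cell identity, did not pass the test either. Id3 kept its call in 13 of 14 alternatives, not with DESeq2. Tcf7 kept its call in 10 of 14 alternatives, not without DP 1 (-0.21), DP 2 (-0.26) or WT CD4 1 (-0.21). Tcf12 kept its call in 7 of 14 alternatives, not without DP 1 (0.32), DP 2 (0.31) or WT CD4 1 (0.18).

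The coreceptors followed the sort, and their values are a check of the labels rather than a result. Cd4 (chr6:124864692-124888221, minus strand) stood at 612 and 671 CPM in WT CD4 and 235 and 249 CPM in DP (-1.41 ± 0.11, adjusted p = 6.86e-07). The DP libraries lay below both WT CD4 libraries, while the mean was 34 CPM in CD4lo and 2.89 CPM in WT CD8. Cd8a (chr6:71373427-71379173, plus strand), the alpha chain of CD8, stood at 0.711 and 3.61 CPM in WT CD4 and 256 and 260.4 CPM in DP. Cd8b1 (chr6:71322788-71337494, plus strand), the beta chain, stood at 11.7 and 10.3 CPM in WT CD4 and 276 and 281 CPM in DP. DP cells thus carried RNA of both CD8 chains and of CD4, with Cd8a means of 258 CPM in DP and 604 CPM in WT CD8 cells. The size for Cd8a (6.79 ± 0.23) depends on very few counts in WT CD4. Cd8a had a fold change of 6.17 without WT CD4 1 and 8.47 without WT CD4 2.

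**Figure D2:**
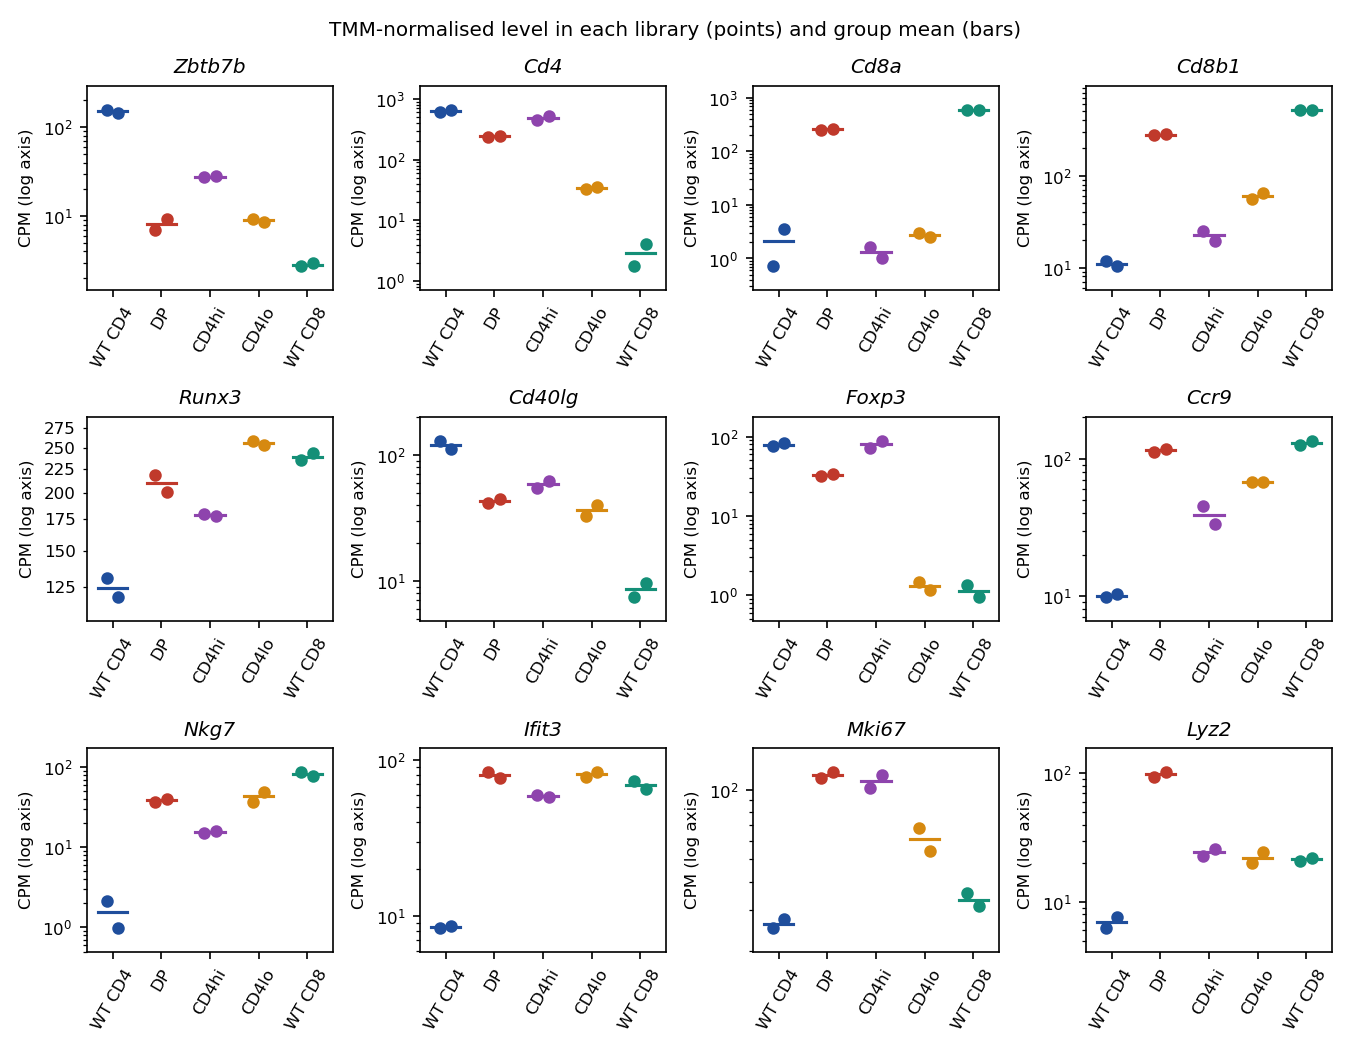
Each panel shows 1 gene, with a point for each of the 10 libraries by group and the CPM level on a log axis. Zbtb7b, Cd4, Cd40lg and Foxp3 are lower in DP than in WT CD4, while Cd8a, Cd8b1, Runx3, Ccr9, Nkg7, Ifit3, Mki67 and Lyz2 are higher, and the 2 libraries of each of these groups lie close together for most genes.

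Genes of the CD4 program fell in DP, with 10 of 16 tested lower and 2 higher and a median of -0.59, against 8.06% lower among all genes. The list holds Cd4, which the sort used and which is among the 10. Both WT CD4 libraries lay outside all 8 others in 8 of the 16, against 2823 of all 12193 genes. Cd40lg, the ligand by which helper cells activate B cells, stood at 130.3 and 111 CPM in WT CD4 and 41.2 and 44.9 CPM in DP. Its log2 fold change was -1.48 ± 0.12 (adjusted p = 4.8e-07), and its WT CD8 mean was 8.52 CPM. St8sia6, a sialyltransferase, fell from 169 and 165 to 52.4 and 55.1 CPM (-1.63 ± 0.077, adjusted p = 1.83e-09). For both genes the DP libraries lay between WT CD4 and WT CD8.

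Cd28, the receptor that gives T cells their main costimulatory signal, fell from 173 and 193 to 112 and 119 CPM (-0.66 ± 0.084). Tnfrsf4, which encodes OX40, fell from 33.4 and 25.7 to 15.2 and 17.4 CPM (-0.85 ± 0.17, adjusted p = 0.00246). Trat1, an adaptor of the T cell receptor, and Amigo2, an adhesion protein, both fell, with log2 fold changes of -1.10 ± 0.13 and -1.06 ± 0.15. Icos, a costimulatory receptor of helper cells, went the other way, from 45.5 and 42.7 to 61 and 65.8 CPM (0.53 ± 0.094, adjusted p = 0.00105), with a CD4hi mean of 119 CPM. Tnfsf8, the ligand of CD30, was the other member that rose (0.57 ± 0.080), and it follows the L mark.

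Of 25 genes of the CD8 program tested, 21 rose and 2 fell, against 11.1% higher among all genes, and the median was 2.76. The list holds Cd8a and Cd8b1, which the sort used. In 21 of the 25 both WT CD4 libraries lay outside all 8 others, against 2823 of all 12193 genes. In those 21 the direction is thus shared by the other OB11 groups and WT CD8. Without Cd8a and Cd8b1 the largest changes were in Nkg7, a protein of cytotoxic granules, and in Klrc1 and Klrk1, which encode the NK cell receptor chains NKG2A and NKG2D. The 2 CD8 program genes called lower became 1 without DP 1, DP 2 or WT CD4 1.

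The letters ACCACA, the core bound by Runx proteins, were searched on both strands in the RefSeq promoter windows, which run from 250 bases before to 50 after a gene's start on build GRCm38.p6. Windows were found for 8241 of the 12193 genes, and 1274 (15.5%) held a match. Among CD8 program genes 12 of 18 with a window (66.7%) held one, as did 2 of 10 CD4 program genes (20%), 162 of 848 genes higher in DP (19.1%) and 104 of 635 lower (16.4%). The CD8 program genes had 1.33 windows per gene and all genes 1.28. The 250 bases before the start of Nkg7, Klrc1 and Klrk1 are given because these members rose most after the coreceptors and hold a match, which is in capitals. A match is a description of these letters and not a bound site.
Nkg7 (chr7:43436888-43437137, plus strand): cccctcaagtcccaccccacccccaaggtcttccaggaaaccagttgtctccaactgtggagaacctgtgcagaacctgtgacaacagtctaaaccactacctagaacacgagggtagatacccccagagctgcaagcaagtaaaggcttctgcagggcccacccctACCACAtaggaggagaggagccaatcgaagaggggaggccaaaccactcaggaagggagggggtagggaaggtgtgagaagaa
Klrc1 (chr6:129678974-129679223, minus strand): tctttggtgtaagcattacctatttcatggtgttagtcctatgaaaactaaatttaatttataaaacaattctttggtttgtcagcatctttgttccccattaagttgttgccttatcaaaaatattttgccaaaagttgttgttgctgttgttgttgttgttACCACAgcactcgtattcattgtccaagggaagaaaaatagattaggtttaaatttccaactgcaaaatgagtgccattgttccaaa
Klrk1 (chr6:129623865-129624114, minus strand): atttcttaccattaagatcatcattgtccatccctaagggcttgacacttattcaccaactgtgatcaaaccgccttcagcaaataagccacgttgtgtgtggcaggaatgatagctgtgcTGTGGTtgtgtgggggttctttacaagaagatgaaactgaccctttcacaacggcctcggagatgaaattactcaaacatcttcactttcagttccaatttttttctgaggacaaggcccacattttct

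Nkg7 stood at 2.13 and 0.973 CPM in WT CD4 and 37.3 and 40.1 CPM in DP (4.69 ± 0.25, adjusted p = 7.45e-09), with a WT CD8 mean of 83.5 CPM. Klrk1 stood at 0.711 and 0.417 CPM in WT CD4 and 8.15 and 8.33 CPM in DP (3.87 ± 0.34, adjusted p = 1.44e-06). In both genes the DP libraries lay above both WT CD4 libraries and below both WT CD8 libraries. Klrc1 had 0 and 1 counts in WT CD4 and 4 and 17 counts in DP (4.01 ± 1.07). Klrc1 and Klrc2 are close copies, and reads may be split between them. Nkg7 had a fold change of 5.30 without WT CD4 1. Klrc1 kept its call in 10 of 12 alternatives, not without DP 2 (2.73), and had a fold change of 4.64 without DP 1, 3.32 without WT CD4 1 and 6.28 without WT CD4 2, with no count left in WT CD4.

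Ccl5, a chemokine stored by CD8 memory cells, stood at 4.8 and 4.72 CPM in WT CD4 and 57.8 and 58.6 CPM in DP (3.61 ± 0.14, adjusted p = 2.03e-10), and the CD4lo mean was 113 CPM. Crtam, an adhesion receptor of activated CD8 and cytotoxic CD4 T cells, stood at 1.96 and 4.17 CPM in WT CD4 and 37.6 and 37.3 CPM in DP (3.55 ± 0.24). Its DP libraries lay above all 8 others. Ly6c2 and Ly6c1, a pair of neighbouring genes for the surface antigen Ly6C, went in opposite directions. Ly6c2 rose from 1.6 and 1.53 to 20.4 and 16.7 CPM (3.55 ± 0.25, adjusted p = 1.34e-07). Ly6c1 fell from 23.6 and 25.7 to 6.9 and 9.74 CPM (-1.56 ± 0.21, adjusted p = 0.000116). Their sequences are nearly identical, so the authors' counting may have divided reads between them and both values are uncertain. Crtam had a fold change of 4.25 without WT CD4 2.

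Both T-box factors that drive effector genes rose. Eomes stood at 4.98 and 5.0 CPM in WT CD4 and 34.3 and 36.9 CPM in DP (2.83 ± 0.17, adjusted p = 2.71e-08), with a WT CD8 mean of 46.4 CPM. Tbx21, which encodes T-bet, stood at 1.78 and 1.39 CPM in WT CD4 and 11.1 and 13.3 CPM in DP (2.95 ± 0.28, adjusted p = 3.3e-06). Of 20 effector and innate-like factors tested, 9 rose and 3 fell, with a median of 0.66. Bhlhe40, a factor of cytokine production in T cells, rose by 1.89 ± 0.18. Zeb2, a factor of terminal effector cells that macrophages also express, rose from 1.6 and 3.06 to 14.6 and 15.8 CPM, and Irf8, a factor of myeloid and B cells, from 4.62 and 7.09 to 25.4 and 23.7 CPM. Their DP libraries lay above all 8 others, and the macrophage markers given later moved in the same way.

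Cytotoxic genes rose in 11 of 18 and fell in 2, with a median of 1.01. Prf1, the pore-forming perforin, stood at 21.3 and 19.9 CPM in WT CD4 and 50.0 and 57.5 CPM in DP (1.39 ± 0.12, adjusted p = 9.58e-07), with a WT CD8 mean of 50.9 CPM. Gzmb, a granzyme that starts apoptosis in the target, stood at 0.355 and 0.417 CPM in WT CD4 and 8.62 and 7.34 CPM in DP (4.29 ± 0.45, adjusted p = 7.27e-06). For both genes DP and WT CD4 did not overlap. Gzmk stood at 0.178 and 1.25 CPM in WT CD4 and 11.1 and 10.3 CPM in DP (3.76 ± 0.49) and its levels follow the L mark. Gzma had 1 and 6 counts in WT CD4 and 19 and 32 in DP (2.75 ± 0.57). The 2 cytotoxic genes called lower became 1 without DP 1, DP 2 or WT CD4 1. Gzmk had a fold change of 3.09 without WT CD4 1 and 5.76 without WT CD4 2. Gzma kept its call in 13 of 14 alternatives, not with limma voom, and had a fold change of 2.17 without WT CD4 1 and 4.26 without WT CD4 2.

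The members that fell were Rab27a, a small GTPase of granule release, with -0.95 ± 0.080, and Fasl, the death ligand, with -1.10 ± 0.31 and levels that follow the L mark. Gzmm, Unc13d and Lamp1 did not pass the test. Fasl kept its call in 10 of 14 alternatives, not without DP 1 (-1.19), DP 2 (-0.99) or WT CD4 1 (-1.03).

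Of 24 NK-type receptors and adaptors listed, 18 were tested, 7 rose and none fell, with a median of 0.72. This median was not stable, at 0.635 without WT CD4 1 and 1.98 without WT CD4 2. The filter took in all groups. In a fit of the 4 libraries alone 9 members were tested and 7 called higher, with a median of 1.76. Klrd1, which encodes CD94, rose from 4.09 and 4.17 to 9.25 and 11.9 CPM (1.35 ± 0.20, adjusted p = 0.00026), against a WT CD8 mean of 27.7 CPM. Cd160, a receptor for the ligand HVEM, rose from 1.42 and 2.36 to 16.1 and 21.6 CPM (3.27 ± 0.28). Cd226, an activating receptor, rose from 48 and 37.8 to 112 and 97.9 CPM (1.30 ± 0.11). The Ly49 receptor genes Klra3 and Klra7 had at most 1 count per library in these 4, and the adaptor Hcst, which carries NKG2D signals, stood at 29.3 and 21 and 20.4 and 20.9 CPM without passing the test.

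Chemokine and cytokine genes gave 7 higher and none lower of 16 tested out of 23 listed. Xcl1, which attracts cross-presenting dendritic cells, stood at 0.355 and 0.973 CPM in WT CD4 and 7.84 and 7.91 CPM in DP (3.46 ± 0.44, adjusted p = 5.55e-05), with DP above all 8 others. Ifng rose from 1.24 and 1.67 to 5.49 and 7.06 CPM (2.08 ± 0.37, adjusted p = 0.00101). Ccl3 and Ccl4, chemokines of effector T cells, had no count in either WT CD4 library and 14 and 17 and 14 and 8 counts in DP. With the WT CD4 group set to 3 counts over the group, Ccl3 was higher by a log2 value of 3.30 and Ccl4 of 2.80. The DP counts were taken as they stand, so their counting error and spread are not in these values. Il21, a cytokine of helper cells that aid B cells, rose by 1.21 ± 0.38. Lymphotoxin beta (Ltb) rose by 0.61 ± 0.10, while Tnf, Lta and Tgfb1 did not pass the test. Xcl1 had a fold change of 4.39 without WT CD4 2. Il21 kept its call in 7 of 14 alternatives, not without DP 1 (1.16), DP 2 (1.27), WT CD4 1 (1.21) or WT CD4 2 (1.23). Ccl4 kept its call in 12 of 13 alternatives, not without DP 1.

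Receptors for migration changed in both directions. Of 16 chemokine and lipid receptors tested out of 20 listed, 7 rose and 4 fell. Ccr9, which guides cells to the small intestine, stood at 9.77 and 10.3 CPM in WT CD4 and 112 and 118 CPM in DP (3.51 ± 0.13, adjusted p = 1.69e-10), with means of 130.4 CPM in WT CD8 and 39.2 CPM in CD4hi. Cxcr6 rose from 2.13 and 4.03 to 13.5 and 12.4 CPM (2.02 ± 0.25) and Cxcr3, a receptor of Th1 and memory cells whose levels follow the L mark, from 4.27 and 3.89 to 13.6 and 16.8 CPM (1.90 ± 0.21). Cxcr5, the receptor that leads helper cells to B cell follicles, rose from 14.2 and 17.5 to 27.4 and 25.8 CPM (0.74 ± 0.19, adjusted p = 0.0134). The 7 receptors of this list called higher became 4 without DP 1. Cxcr5 kept its call in 12 of 14 alternatives, not without DP 1 (0.71) or WT CD4 1 (0.62).

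A pair of receptors that keep naive cells circulating through lymph nodes fell. Ccr7, which brings them in, fell from 176 and 159.6 to 120.2 and 116 CPM (-0.51 ± 0.088, adjusted p = 0.000856). S1pr1, which lets them leave, fell from 261 and 278 to 176 and 169 CPM (-0.64 ± 0.074, adjusted p = 2.18e-05), and its DP libraries lay below all 8 others.

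Among 16 integrin chains 5 rose and 2 fell. Itgae, the CD103 chain that holds cells in epithelium, rose from 26.5 and 23.2 to 110.0 and 119.5 CPM (2.21 ± 0.100, adjusted p = 1.15e-09), and Itgb3 fell from 102 and 101 to 40.8 and 38.8 CPM (-1.35 ± 0.078, adjusted p = 1.88e-08). The levels of both follow the L mark. Itgb1 rose from 78.5 and 86.1 to 147 and 142 CPM (0.81 ± 0.076) and Itgal, the alpha chain of LFA-1, by 0.41 ± 0.065. Itgb7, the partner of Itgae, stood at 272 and 234 and 279 and 306 CPM (adjusted p = 0.13). Of 17 genes typical of intraepithelial lymphocytes, 11 rose and none fell, with a median of 2.07. The list shares Ccr9, Itgae, Gzma, Gzmb, Cd160, Klrd1 and Xcl1 with those above, and Ahr, the receptor that such cells need to persist in the gut, rose by 0.92 ± 0.28. The 2 integrin genes called lower became 1 without DP 1, DP 2 or WT CD4 1. Ahr kept its call in 10 of 14 alternatives, not without DP 1 (1.03), DP 2 (0.82) or WT CD4 1 (0.80). Itgb7 was called without WT CD4 1 (0.33).

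Regulatory T cell transcripts were lower in DP, although the sort left out CD25. Of 18 core genes 10 fell and 2 rose, with a median of -0.47. Foxp3, the lineage factor, stood at 75.2 and 82.5 CPM in WT CD4 and 31.7 and 33.3 CPM in DP (-1.28 ± 0.11, adjusted p = 1.49e-06), and its means were 80.7 CPM in CD4hi and 1.33 CPM in CD4lo. Il2ra, which encodes CD25, fell from 73 and 80.2 to 28.2 and 37 CPM (-1.23 ± 0.12, adjusted p = 5.82e-06). In bulk samples such as these, fewer cells of a type and less RNA per cell cannot be told apart.

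Nrp1, a receptor of thymus-derived regulatory T cells, fell from 63.6 and 60.3 to 16 and 15.1 CPM (-1.99 ± 0.12, adjusted p = 2.62e-08). Lrrc32, which displays latent TGF-beta, fell from 24.7 and 24.9 to 7.21 and 8.05 CPM (-1.70 ± 0.21). Ikzf2, which encodes Helios, fell from 108 and 96.6 to 74.8 and 74.3 CPM (-0.45 ± 0.096). The fall was unequal across the list. Ctla4 was slightly higher (0.29 ± 0.098, adjusted p = 0.0494), and Folr4, Gpr83 and Rgs1 did not pass the test. Summed over 8 markers of regulatory T cells, the level was 432 and 424 CPM in WT CD4 and 239 and 250 CPM in DP, against 485 and 495 CPM in CD4hi. The 2 regulatory T cell genes called higher became 0 without DP 1 or DP 2 and 1 without WT CD4 2. Ctla4 kept its call in 3 of 14 alternatives, not without DP 1 (0.31), DP 2 (0.29) or WT CD4 2 (0.20).

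Programs of helper subsets moved unevenly. Th1 genes rose in 6 of 9, with a median of 1.33, with Tbx21, Ifng, Cxcr3, Il18r1 and Il18rap among them. Il18rap, a chain of the IL-18 receptor, was at 1.24 and 6.67 CPM in WT CD4 and 12.4 and 9.04 CPM in DP (1.33 ± 0.39). Stat4 stood at 92.2 and 109 and 112 and 104 CPM and did not pass the test. Of 7 Th2 genes 2 fell and none rose. Il4ra, the receptor chain for IL-4 and IL-13, fell from 234 and 248 to 117 and 118 CPM (-1.04 ± 0.075, adjusted p = 1.97e-07), with DP below all 8 others. The 6 Th1 genes called higher became 3 without DP 1. The 2 Th2 genes called lower became 1 without DP 1, DP 2, WT CD4 1 or WT CD4 2. Il18rap kept its call in 10 of 14 alternatives, not without DP 1 (1.11) or WT CD4 1 (0.69), and had a fold change of 3.08 without WT CD4 2. Il18r1 kept its call in 10 of 14 alternatives, not without DP 1 (0.23) or WT CD4 2 (0.27).

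Th17 genes rose in 6 of 10, with a median of 0.94. Rora rose from 13.9 and 16.3 to 32.3 and 36.4 CPM (1.18 ± 0.15, adjusted p = 6.62e-05). Il17a and Il17f had few counts in all 4 libraries. Ccr6 rose by 0.95 ± 0.22. Il1r1 rose by 1.82 ± 0.47. Among 12 follicular helper genes 7 rose and 1 fell, with a median of 0.57. Bcl6, the factor of that subset, stood at 19.4 and 19 and 25.1 and 21.5 CPM (adjusted p = 0.214), and Cd200 rose by 0.85 ± 0.19. Cd200 kept its call in 13 of 14 alternatives, not with DESeq2. The 6 Th17 genes called higher became 3 without DP 1 or WT CD4 1 and 2 without DP 2. The 7 follicular helper genes called higher became 4 without DP 1, and the 1 called lower became 0 without DP 1. Ccr6 kept its call in 13 of 14 alternatives, not without DP 2 (0.77). Il1r1 kept its call in 10 of 14 alternatives, not without DP 1 (1.57) or WT CD4 1 (1.29), and had a fold change of 3.03 without WT CD4 2.

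Inhibitory receptors split into 6 higher and 5 lower of 14. Lag3, which binds MHC class II, stood at 3.02 and 4.72 CPM in WT CD4 and 24.8 and 26.1 CPM in DP (2.68 ± 0.22, adjusted p = 5.89e-07), and its mean was 35.7 CPM in CD4hi and 2.05 CPM in WT CD8. Tigit, a receptor for ligands of the nectin family, rose from 5.86 and 5.42 to 19.3 and 19.5 CPM (1.78 ± 0.22). In both genes the CD4hi mean was the highest of the 5 groups. Pdcd1, which encodes PD-1, rose by 0.61 ± 0.19. Lair1, a collagen receptor, fell from 9.42 and 11.1 to 2.98 and 4.1 CPM (-1.53 ± 0.28), and Cd200r1, Entpd1, Nt5e and Btla were the others that fell. The 5 inhibitory receptors called lower became 3 without DP 1. Pdcd1 kept its call in 10 of 14 alternatives, not without DP 2 (0.46) or WT CD4 1 (0.49). Cd200r1 kept its call in 11 of 14 alternatives, not without DP 1 (-1.03) or WT CD4 2 (-0.97). Entpd1 kept its call in 12 of 14 alternatives, not without DP 2 (-0.96).

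In the costimulatory and TNF families 8 of 23 rose and 9 fell. Beside the falls of Cd40lg, Cd28 and Tnfrsf4 given above, Cd27 fell (-0.32 ± 0.085) and Cd2, an adhesion receptor, went from 347 and 328 to 242 and 226 CPM (-0.53 ± 0.073). Tnfrsf14, which encodes HVEM and whose levels follow the L mark, rose from 30.7 and 28.2 to 71.8 and 66.1 CPM (1.23 ± 0.088). Its ligand Tnfsf14, LIGHT, rose from 3.02 and 2.92 to 7.52 and 8.76 CPM (1.45 ± 0.25, adjusted p = 0.000878). HVEM, LIGHT and the HVEM receptor Cd160 were thus all higher, while Btla, the fourth member of this ligand network, fell (-0.44 ± 0.098). The 9 genes of these families called lower became 4 without DP 1, DP 2 or WT CD4 1. Cd27 kept its call in 11 of 14 alternatives, not without DP 1 (-0.31), DP 2 (-0.32) or WT CD4 1 (-0.21). Btla kept its call in 13 of 14 alternatives, not without DP 1 (-0.34).

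Cytokine receptors and STAT genes split into 8 higher and 9 lower among 32, and the median was 0.08. Il7r, the receptor chain for the survival cytokine IL-7, stood at 417 and 404 CPM in WT CD4 and 256 and 264 CPM in DP (-0.66 ± 0.069, adjusted p = 9.1e-06). DP lay below all 8 others, and the levels follow the L mark. Il2rb, which carries IL-2 and IL-15 signals, rose from 78 and 78.5 to 129 and 115 CPM (0.64 ± 0.095, adjusted p = 0.000209). The 3 TGF-beta receptor genes all fell, Tgfbr1 with -0.62 ± 0.10, Tgfbr2 with -0.62 ± 0.071 and Tgfbr3 with -0.31 ± 0.079. Tgfbr2, the ligand-binding chain, went from 421 and 417 to 273 and 273 CPM. Il6ra fell (-0.29 ± 0.079), and its signalling chain Il6st fell (-0.36 ± 0.080). Il2rg, the chain shared by this receptor family, had 113 and 108 and 91.7 and 99.1 CPM (adjusted p = 0.117). The 8 cytokine receptor and STAT genes called higher became 2 without DP 1 and 5 without DP 2, WT CD4 1 or WT CD4 2, and the 9 called lower became 5 without DP 2. Tgfbr3 kept its call in 10 of 14 alternatives, not without DP 1 (-0.33) or DP 2 (-0.28). Il6ra kept its call in 9 of 14 alternatives, not without DP 1 (-0.27), DP 2 (-0.30) or WT CD4 2 (-0.25). Il6st kept its call in 13 of 14 alternatives, not without DP 2 (-0.27).

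The SOCS genes feed back on cytokine signals, and ThPOK is known to induce them in thymocytes that take the CD4 fate. Of 8 tested, 2 rose and 1 fell, against 11.1% and 8.06% of all genes. Socs3 rose from 57.8 and 56 to 93.6 and 102 CPM (0.78 ± 0.087, adjusted p = 1.6e-05). Socs1 rose from 16 and 14.9 to 24.5 and 21.5 CPM (0.57 ± 0.16, adjusted p = 0.019). Cish stood at 24.9 and 31.1 and 19.3 and 20.8 CPM (adjusted p = 0.0522), and Socs2, at low counts, fell (-1.66 ± 0.46). The 2 SOCS genes called higher became 1 without DP 1 or WT CD4 2, and the 1 called lower became 0 without DP 1, DP 2 or WT CD4 2 and 2 without WT CD4 1. Socs1 kept its call in 10 of 14 alternatives, not without DP 1 (0.49) or WT CD4 2 (0.52). Socs2 kept its call in 8 of 14 alternatives, not without DP 1 (-1.40), DP 2 (-1.98) or WT CD4 2 (-1.13). Cish was called without WT CD4 1 (-0.62).

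**Figure D3:**
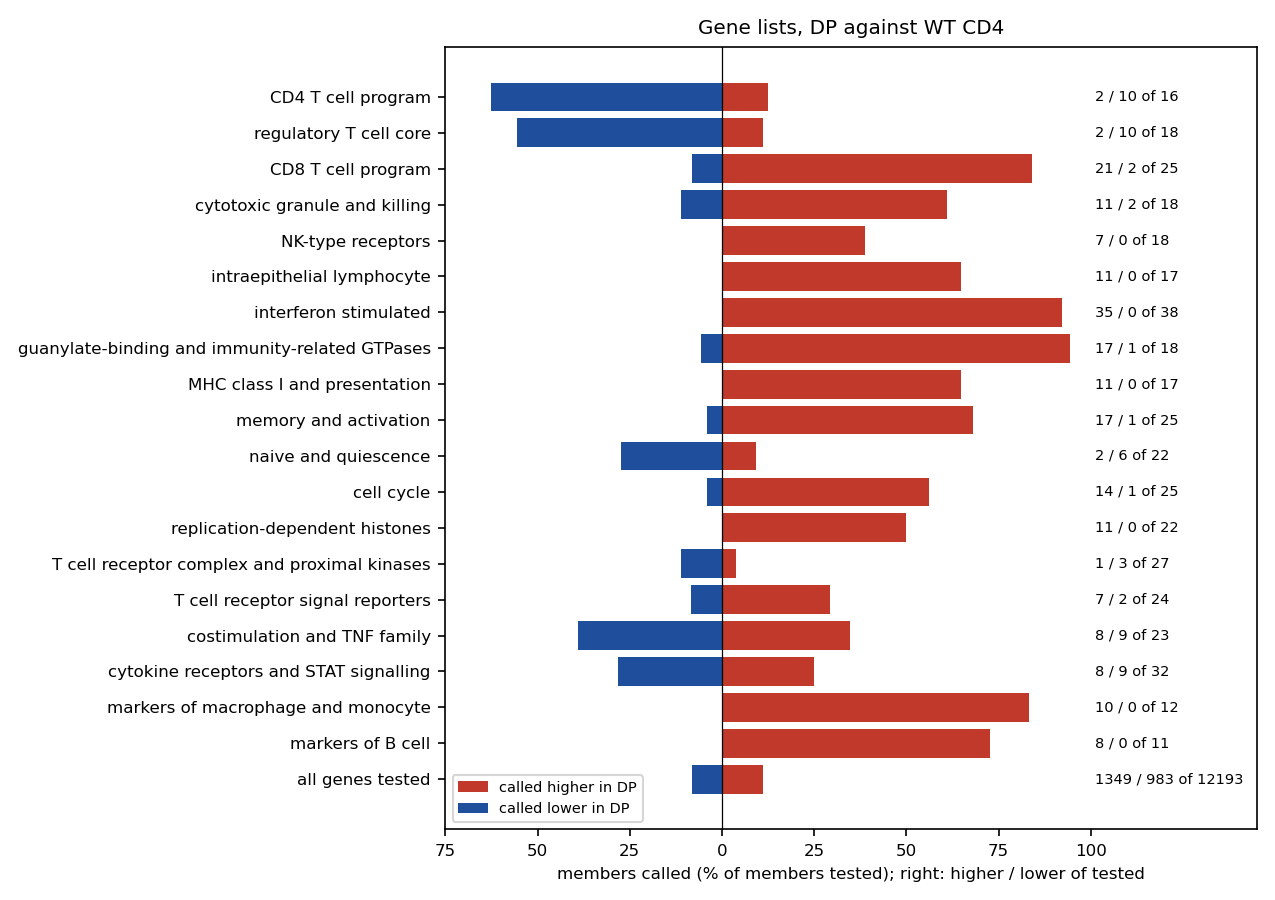
Bars give, for 19 gene lists and for all genes tested, the percentage of tested members called higher (to the right) and lower (to the left) in DP than in WT CD4. The interferon list (35 of 38 higher) and the CD8 program (21 of 25 higher) stand beyond the 11.1% of all genes, and the CD4 program (10 of 16 lower) and the regulatory T cell core (10 of 18 lower) beyond the 8.06%. The CD4 program list holds Cd4 and the CD8 program list holds Cd8a and Cd8b1, which the sort used.

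Interferon-stimulated genes were higher in DP almost throughout. Of 39 listed, 38 were tested, 35 rose and none fell, with a median of 1.15, and the count was between 33 and 35 in every alternative run. Both WT CD4 libraries lay below all 8 others in 37 of the 38, against 12.3% of all genes, and 1 of the 38 follows the L mark. Summed over the list, WT CD4 had 2550 and 2450 CPM and DP 4050 and 4120 CPM, while CD4hi, CD4lo and WT CD8 had 3820 to 4070 CPM. The difference is therefore between WT CD4 and every other group, wild-type CD8 cells included. Type I interferon acts through a complex that includes Stat2 and Irf9 and binds the interferon-stimulated response element (ISRE) in front of its target genes.

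The ISRE core, searched on both strands as GAAA, any 2 bases and GAAA again, was present in 325 of the 8241 genes with a window (3.94%). It was present in 14 of 27 interferon genes with a window (51.9%), 76 of 848 genes higher in DP (8.96%) and 27 of 635 genes lower (4.25%). With the interferon list and the guanylate-binding and immunity-related GTPases left out, 54 of 814 higher genes (6.63%) held it. The 250 bases before the start of Ifit3, Isg15, Oas3 and Rsad2 are given since these members of separate antiviral families rose by a fold of at least 2 and hold the core, which is in capitals.
Ifit3 (chr19:34583279-34583528, plus strand): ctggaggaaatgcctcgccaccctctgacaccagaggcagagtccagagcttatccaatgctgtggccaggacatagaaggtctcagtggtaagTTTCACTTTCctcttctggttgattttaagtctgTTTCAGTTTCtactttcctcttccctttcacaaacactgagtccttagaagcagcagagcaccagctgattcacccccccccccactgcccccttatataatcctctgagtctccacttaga
Isg15 (chr4:156200819-156201068, minus strand): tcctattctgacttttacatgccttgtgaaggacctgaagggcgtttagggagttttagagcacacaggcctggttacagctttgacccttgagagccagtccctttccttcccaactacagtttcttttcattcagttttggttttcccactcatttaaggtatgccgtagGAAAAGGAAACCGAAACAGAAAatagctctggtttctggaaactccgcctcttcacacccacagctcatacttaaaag
Oas3 (chr5:120777660-120777909, minus strand): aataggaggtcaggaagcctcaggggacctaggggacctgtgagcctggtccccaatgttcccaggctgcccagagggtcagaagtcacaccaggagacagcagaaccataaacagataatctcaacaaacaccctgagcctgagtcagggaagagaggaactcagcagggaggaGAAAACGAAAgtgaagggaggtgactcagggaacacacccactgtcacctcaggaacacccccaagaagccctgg
Rsad2 (chr12:26456453-26456702, minus strand): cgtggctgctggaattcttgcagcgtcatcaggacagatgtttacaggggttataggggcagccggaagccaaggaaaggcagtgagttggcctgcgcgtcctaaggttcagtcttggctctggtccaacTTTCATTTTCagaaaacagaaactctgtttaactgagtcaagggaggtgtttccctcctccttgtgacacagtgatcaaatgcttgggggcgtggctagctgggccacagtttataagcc

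Ifit3, which binds foreign RNA, stood at 8.35 and 8.61 CPM in WT CD4 and 83.9 and 76.8 CPM in DP (3.24 ± 0.11, adjusted p = 9.77e-11). Mx1, a GTPase that blocks influenza viruses, stood at 3.55 and 3.47 CPM in WT CD4 and 29.8 and 34 CPM in DP (3.18 ± 0.18, adjusted p = 1.57e-08). Neither gene's groups overlap, and the WT CD8 means were 69.5 CPM for Ifit3 and 34.5 CPM for Mx1. Isg15, a ubiquitin-like modifier, rose from 4.8 and 3.33 to 18.3 and 23.7 CPM (2.39 ± 0.21) and its protease Usp18 by 1.35 ± 0.15. The oligoadenylate synthetase Oas3, which activates RNase L, rose from 11.7 and 14.2 to 59.2 and 53.9 CPM (2.11 ± 0.11), and Oasl2 by 2.32 ± 0.19. Rsad2, which encodes viperin, rose from 3.02 and 1.95 to 12.1 and 12.1 CPM (2.31 ± 0.28). Oasl2 had a fold change of 2.93 without WT CD4 2.

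Factors of the pathway itself rose as well. Irf7, which amplifies the response, stood at 38.2 and 30.8 CPM in WT CD4 and 90.3 and 102 CPM in DP (1.49 ± 0.12, adjusted p = 8.52e-07). Stat2 rose by 0.76 ± 0.092 and Irf9 by 0.43 ± 0.082. The receptor chains did not pass the test, with Ifnar1 at 104 and 107 CPM in WT CD4 and 101 and 111 CPM in DP and Ifnar2 at 21.7 and 31.7 and 34.2 and 34 CPM. Among the sensors, Ddx58, which encodes RIG-I, rose by 0.41 ± 0.080 and Ifih1, which encodes MDA5, by 1.01 ± 0.12. Adar, an editor of double-stranded RNA that lies near Zbtb7b on chromosome 3, rose from 136 and 129.6 to 212 and 223 CPM (0.71 ± 0.071, adjusted p = 5.27e-06). Ddx58 kept its call in 13 of 14 alternatives, not without DP 1 (0.33), and Ifnar2 was called without WT CD4 2 (0.65).

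**Figure D4:**
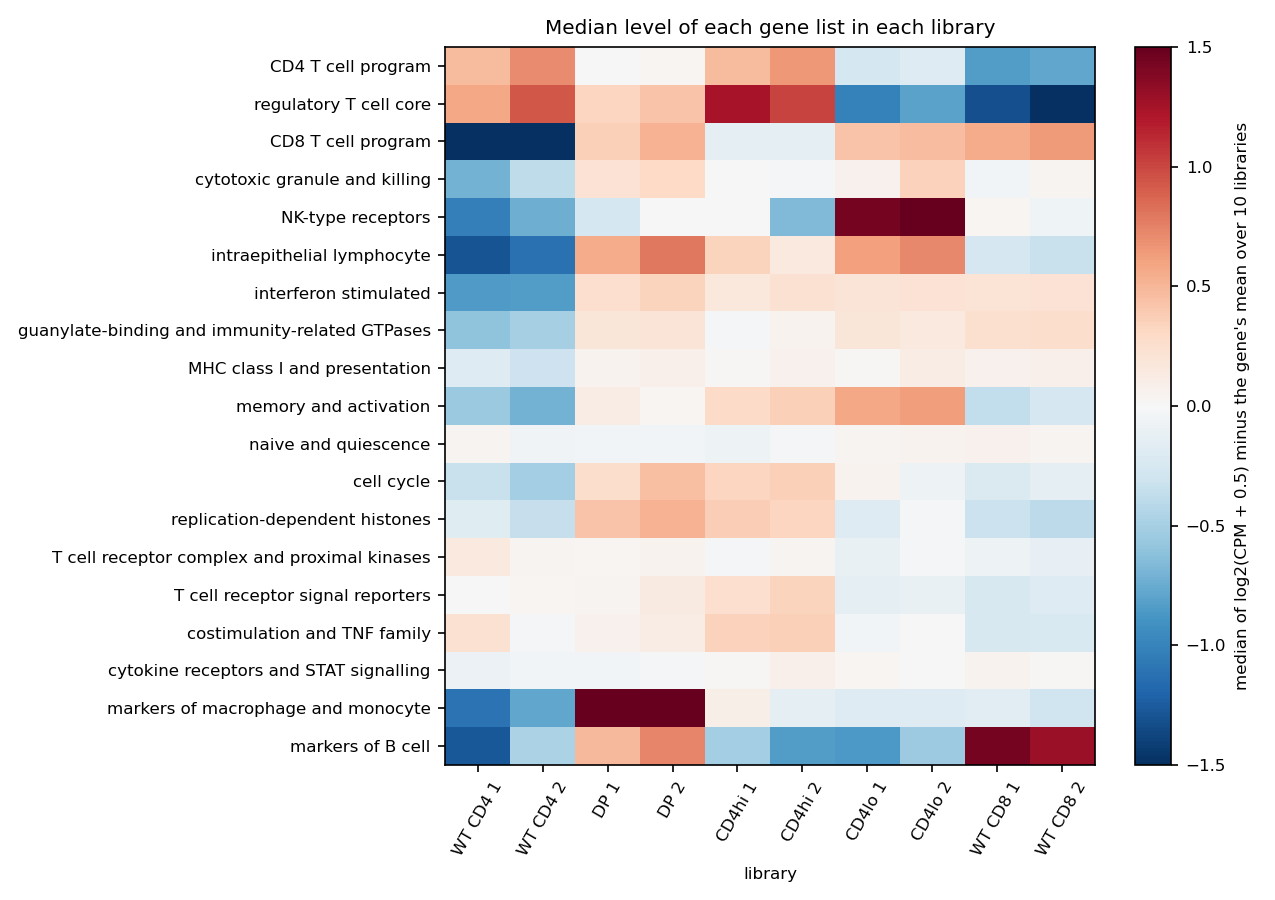
The heat map gives, for 19 lists and the 10 libraries, the median over the list's tested genes of log2(CPM + 0.5) after subtraction of each gene's mean. In the interferon row both WT CD4 columns are the lowest of the 10, and in the regulatory T cell row DP lies between WT CD4 and WT CD8.

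The guanylate-binding proteins and immunity-related GTPases, which attack vacuoles of intracellular pathogens, rose in 17 of 18 and fell in 1, with a median of 0.73. Gbp6 rose from 49.6 and 43.1 to 131 and 129 CPM (1.49 ± 0.11, adjusted p = 1.6e-07) and Gbp10 from 6.58 and 4.72 to 29.8 and 28.8 CPM (2.39 ± 0.17). These are close copies, so single values are uncertain, and Gbp10 follows the L mark, as does Gbp2 (0.82 ± 0.085). Irgm1 rose by 0.71 ± 0.091 and Tgtp2 by 1.14 ± 0.077. The ISRE core was present in 9 of the 10 members with a promoter window (90%). Gvin1, a very large GTPase, was the member that fell (-0.82 ± 0.13), and it follows the L mark.

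Genes of MHC class I presentation rose in 11 of 17, with small changes and a median of 0.32. Nlrc5, the activator of these genes, rose from 260.1 and 223 to 335 and 337 CPM (0.48 ± 0.079, adjusted p = 0.000622). Psmb9, a subunit of the immunoproteasome, rose by 0.61 ± 0.10, H2-T22 by 0.61 ± 0.075, and the peptide transporter Tap1, which follows the L mark, by 0.45 ± 0.075. The light chain B2m stood at 1201 and 1179 CPM in WT CD4 and 1140.0 and 1253 CPM in DP (adjusted p = 0.95). The H2 genes are near-identical copies. The 11 MHC class I presentation genes called higher became 4 without DP 2 and 7 without WT CD4 2.

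Among the 7 Schlafen genes tested, which govern T cell quiescence and RNA turnover, 4 rose and 1 fell. Slfn5 rose from 99.3 and 99.6 to 202 and 211 CPM (1.05 ± 0.074, adjusted p = 1.47e-07). The neighbours Slfn9 and Slfn8 went in opposite directions, with Slfn9 at 12.6 and 9.86 CPM in WT CD4 and 108 and 111 CPM in DP (3.30 ± 0.11) and Slfn8 at 133 and 141 CPM in WT CD4 and 25.1 and 19.8 CPM in DP (-2.61 ± 0.11). These are close copies and may share reads, so both values are uncertain, and Slfn8 follows the L mark. Slfn2, whose loss ends quiescence, was slightly higher (0.20 ± 0.065). Slfn2 kept its call in 4 of 14 alternatives, not without DP 1 (0.23), DP 2 (0.19), WT CD4 1 (0.22) or WT CD4 2 (0.20).

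Cell cycle genes were higher, although the cells were sorted as naive. Of 25 tested out of 27, 14 rose and 1 fell, with a median of 0.90. Mki67, a marker of cycling cells, stood at 25.1 and 27.5 CPM in WT CD4 and 113 and 119.7 CPM in DP (2.14 ± 0.12, adjusted p = 1.01e-08), with means of 109 CPM in CD4hi, 61.1 CPM in CD4lo and 33.4 CPM in WT CD8. Top2a, which untangles DNA in dividing cells, rose from 12.3 and 18.1 to 62.4 and 59.3 CPM (1.98 ± 0.18). DP and CD4hi held the highest levels of both. Mcm5, a subunit of the replicative helicase, rose by 0.90 ± 0.13 and Cdc20, which starts anaphase, by 2.02 ± 0.43. Cdkn1b, the p27 inhibitor of quiescent cells, stood at 142 and 146 and 139 and 131 CPM. The 1 lower call among cell cycle genes became 0 without DP 1, DP 2 or WT CD4 1.

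Replication-dependent histone genes rose in 11 of 22 and fell in none, with a median of 0.92. The linker histone genes Hist1h1b (2.28 ± 0.28), Hist1h1a (1.88 ± 0.26) and Hist1h1c (0.70 ± 0.10) were among them. DP lay outside all 8 others in 8 of the 22 genes, against 773 of all 12193 genes. These genes are near-identical to each other, and most of their transcripts carry no poly(A) tail. The 11 histone genes called higher became 7 without DP 2 and 6 without WT CD4 2, and 1 was called lower without WT CD4 2.

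Of 13 enzymes of DNA methylation and demethylation 2 rose and 1 fell, against 11.1% and 8.06% of all genes. Uhrf1, which brings Dnmt1 to replicating DNA, rose from 7.11 and 5.42 to 18.2 and 23.9 CPM (1.76 ± 0.23, adjusted p = 6.56e-05), while Dnmt1 stood at 218 and 208 and 239.8 and 237 CPM (adjusted p = 0.117). Tet2, which oxidises methylcytosine, rose by 0.33 ± 0.093, and Tet1 and Tet3 did not pass the test. The glycosylase gene Mbd4 fell (-0.95 ± 0.21). Of 20 Polycomb and histone-modifying genes 2 rose, against 11.1% of all genes. Hdac7 rose from 106 and 102 to 177 and 168 CPM (0.73 ± 0.072, adjusted p = 5.24e-06) and follows the L mark. Ezh2, the Polycomb methyltransferase, rose by 0.47 ± 0.14. The 2 DNA methylation genes called higher became 1 without DP 1. The 2 Polycomb and histone-modifying genes called higher became 1 without DP 1 or DP 2. Tet2 kept its call in 11 of 14 alternatives, not without DP 1 (0.25) or WT CD4 1 (0.26). Ezh2 kept its call in 8 of 14 alternatives, not without DP 1 (0.42), DP 2 (0.52) or WT CD4 2 (0.24).

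Of 27 genes of the T cell receptor complex and its kinases, 1 was called higher and 3 lower, and the median was 0.0052. Among all genes 11.1% were higher and 8.06% lower. Lck, the kinase bound to CD4 and CD8, stood at 439.8 and 382 CPM in WT CD4 and 373 and 380.1 CPM in DP (adjusted p = 0.325). Themis, an adaptor of positive selection, stood at 142 and 150.3 and 153 and 155 CPM. Cd5, an inhibitor of receptor signals whose level records their strength, fell from 215 and 205 to 139 and 154 CPM (-0.52 ± 0.075, adjusted p = 0.000172). The 1 higher call among receptor complex and kinase genes became 2 without WT CD4 1 or WT CD4 2.

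Reporters of receptor signals gave 7 higher and 2 lower of 24. Nr4a1, the gene of Nur77, stood at 35.7 and 31.5 and 32 and 30.8 CPM, Egr2 at 24.9 and 20.2 and 26.8 and 27.1 CPM, and Cd69 at 117 and 106 and 95.8 and 106 CPM, and none of the 3 passed the test. Nr4a2, a relative of Nr4a1, rose from 3.2 and 3.33 to 12.4 and 12.9 CPM (1.94 ± 0.31, adjusted p = 0.000422). Tnfaip3, which encodes the NF-kB inhibitor A20, rose from 121 and 121 to 276 and 283 CPM (1.21 ± 0.073, adjusted p = 2.85e-08). The AP-1 genes Fos (0.68 ± 0.11), Jun (0.59 ± 0.080) and Junb (0.67 ± 0.087) rose too, as did Fosb (0.93 ± 0.21). Fosb kept its call in 12 of 14 alternatives, not without WT CD4 2 (0.54).

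Genes of the naive state included 2 that rose and 6 that fell among 22, against 11.1% and 8.06% of all genes, and the median was 0.0047. Igfbp4, a binding protein of insulin-like growth factors that naive CD4 T cells express, stood at 606 and 537 CPM in WT CD4 and 174 and 175 CPM in DP (-1.71 ± 0.079, adjusted p = 1.67e-09), and DP was below all 8 others and near the WT CD8 mean of 187 CPM. Cxxc5, a CXXC zinc finger gene, stood at 1.96 and 1.67 CPM in WT CD4 and 25.6 and 23.3 CPM in DP (3.75 ± 0.22, adjusted p = 2.24e-08), with means of 22.3 to 24.9 CPM in the other 3 groups. Of 25 memory and activation genes 17 rose and 1 fell, with a median of 0.61. S100a6 rose from 6.4 and 4.03 to 13 and 17.4 CPM (1.57 ± 0.25) and the annexin gene Anxa2 from 4.44 and 6.11 to 19.1 and 15.4 CPM (1.68 ± 0.23). Cd44, the antigen sorted against, stood at 80.7 and 77.4 and 79.6 and 76.1 CPM (adjusted p = 0.881). The 2 genes of the naive state called higher became 1 without DP 1, DP 2 or WT CD4 1. The 1 lower call among memory and activation genes became 0 without DP 1, DP 2 or WT CD4 1.

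Regulators of cell death gave 5 higher and 1 lower of 14. Pmaip1, which encodes Noxa, rose from 2.49 and 1.81 to 14.1 and 14.1 CPM (2.73 ± 0.24, adjusted p = 1.41e-06) and follows the L mark. Bbc3, which encodes Puma, fell from 13.7 and 12.8 to 3.13 and 5.23 CPM (-1.64 ± 0.27, adjusted p = 0.000581). These killers of the same BH3 class thus moved in opposite directions, while Bcl2 (203 and 191 and 185 and 183 CPM) and Bcl2l11, the gene of Bim, did not pass the test. Bid rose by 0.80 ± 0.19. Bad rose by 0.93 ± 0.28. The 5 cell death regulators called higher became 3 without DP 1 or WT CD4 2 and 2 without DP 2 or WT CD4 1. Bid kept its call in 11 of 14 alternatives, not without DP 2 (0.79) or WT CD4 1 (0.67). Bad kept its call in 6 of 14 alternatives, not without DP 1 (0.90), DP 2 (0.97), WT CD4 1 (0.98) or WT CD4 2 (0.88).

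Of 8 Gimap GTPases, which sustain naive T cells, 3 rose and 1 fell. Gimap7 rose from 58.1 and 52 to 154 and 143 CPM (1.43 ± 0.083, adjusted p = 1.94e-08) and follows the L mark, Gimap3 rose by 0.40 ± 0.077 and Gimap9 fell (-0.40 ± 0.087). Gimap5 rose by 0.34 ± 0.11. Among 11 cyclic nucleotide phosphodiesterases, Pde5a, which degrades cyclic GMP, stood at 1.42 and 1.25 CPM in WT CD4 and 30.3 and 34.7 CPM in DP (4.60 ± 0.19, adjusted p = 4.1e-10). Its means in the other 3 groups ran from 17.1 to 57.3 CPM. Pde7a rose by 0.39 ± 0.092 and Pde2a fell (-0.62 ± 0.088), with DP below all 8 others. The 3 Gimap genes called higher became 1 without DP 1, and the 1 called lower became 0 without DP 1 or DP 2. Gimap3 kept its call in 13 of 14 alternatives, not without DP 1 (0.32). Gimap9 kept its call in 12 of 14 alternatives, not without DP 1 (-0.39) or DP 2 (-0.39). Gimap5 kept its call in 8 of 14 alternatives, not without DP 1 (0.40), DP 2 (0.30), WT CD4 1 (0.39) or WT CD4 2 (0.31). Pde7a kept its call in 11 of 14 alternatives, not without DP 1 (0.32) or WT CD4 2 (0.31).

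Of 16 glycolysis genes 4 rose and 1 fell, against 11.1% and 8.06% of all genes. The glucose transporter Slc2a3 rose by 0.47 ± 0.10, Pfkp by 0.43 ± 0.078 and Hk1 by 0.41 ± 0.11, and the enolase Eno1 fell from 286 and 277 to 204 and 222 CPM (-0.40 ± 0.073, adjusted p = 0.00126). Slc2a1 and Ldha did not pass the test. Of 8 Ly6 antigens 4 rose and 1 fell, among the former Ly6a (0.37 ± 0.12). The 4 glycolysis genes called higher became 2 without DP 2, and the 1 called lower became 0 without DP 1. The 4 Ly6 genes called higher became 1 without DP 1, DP 2 or WT CD4 2 and 2 without WT CD4 1, and the 1 called lower became 2 without WT CD4 2. Slc2a3 kept its call in 13 of 14 alternatives, not without DP 1 (0.42). Hk1 kept its call in 12 of 14 alternatives, not without DP 2 (0.29) or WT CD4 1 (0.32). Eno1 kept its call in 13 of 14 alternatives, not without DP 1 (-0.33). Ly6a kept its call in 8 of 14 alternatives, not without DP 1 (0.32), DP 2 (0.44) or WT CD4 2 (0.21).

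DP here names mature splenic cells, so markers of double-positive thymocytes were read as a check. Rag1 had 1 and 6 counts in WT CD4 and no count in either DP library, Rag2 had 0 and 3 counts in WT CD4 and 0 in both DP libraries, and Ptcra had no count in any of the 4. A count of 0 allows up to 3 counts in that library, and this covers counting error only. Of 7 such markers tested out of 11 listed 3 rose and none fell. Dntt, the template-free DNA polymerase of developing lymphocytes, rose from 9.24 and 10.3 to 16.1 and 17.9 CPM (0.80 ± 0.19, adjusted p = 0.00918), above all 8 others. Themis and Cd1d1 did not pass the test. The 3 thymocyte markers called higher became 0 without DP 2 and 1 without WT CD4 1. Dntt kept its call in 12 of 14 alternatives, not without DP 2 (0.73).

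Marker lists of further cell types were read in the same libraries. Of 9 alpha beta T cell markers 1 was higher and none lower (Thy1, 0.57 ± 0.073). Macrophage and monocyte markers rose in 10 of 12 tested out of 14, with none lower, a median of 2.75 and DP above all 8 others in 9 of the 12. Among all genes DP lay above all 8 others in 431 (3.53%). Their summed level was 154 and 165 CPM in WT CD4, 348 and 371 CPM in DP and 194 to 231 CPM in the other groups. Lyz2, the lysozyme of myeloid cells, stood at 6.22 and 7.64 CPM in WT CD4 and 94.5 and 103 CPM in DP (3.82 ± 0.14, adjusted p = 1.09e-10). Csf1r, the receptor for the macrophage growth factor, stood at 0.889 and 1.81 CPM in WT CD4 and 11 and 12.3 CPM in DP (3.05 ± 0.43, adjusted p = 0.000148). The complement genes C1qa, C1qb and C1qc rose by 3.28 ± 0.63, 4.11 ± 0.52 and 3.97 ± 0.79 and follow the L mark. Emr1, the gene of F4/80, had 0 and 5 counts in WT CD4 and 13 and 7 in DP, and Cd14 0 and 1 against 1 and 3. The part of these cells in the other results was not tested. The 1 higher call among alpha beta T cell markers became 2 without WT CD4 1, and 1 was called lower without WT CD4 1 or WT CD4 2. Csf1r had a fold change of 3.68 without WT CD4 2, and C1qb had a fold change of 5.40 without WT CD4 2. C1qc had a fold change of 3.16 without WT CD4 1 and 8.29 without WT CD4 2, with no count left in WT CD4.

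B cell markers rose in 8 of 11, with none lower and a median of 1.64. Their sum was 271 and 309 CPM in WT CD4, 421 and 468 CPM in DP and 521 and 542 CPM in WT CD8. Cd74, the invariant chain of MHC class II, stood at 21 and 30.3 CPM in WT CD4 and 106 and 123 CPM in DP (2.14 ± 0.17, adjusted p = 4.46e-07), and H2-Ab1 at 5.69 and 9.45 CPM in WT CD4 and 40.8 and 45.8 CPM in DP (2.48 ± 0.21). Ms4a1, which encodes CD20, rose by 2.10 ± 0.33. Blk, a kinase of B and some gamma delta T cells, rose by 2.43 ± 0.50. Ighm did not pass the test. The part of B cell RNA in the other results was not tested. Ms4a1 had a fold change of 2.75 without WT CD4 2. Blk kept its call in 13 of 14 alternatives, not with limma voom, and had a fold change of 3.73 without WT CD4 2.

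NK cell markers rose in 1 of 6 tested (Gzma), with sums of 2.49 and 6.39 CPM in WT CD4 and 7.37 and 10.4 CPM in DP, and Ncr1, the receptor that defines NK cells, had 3 and 7 counts in WT CD4 and 4 and 4 in DP. Gamma delta markers gave 1 of 6 (Blk), with sums of 1.42 and 5.14 CPM in WT CD4 and 4.86 and 4.38 CPM in DP. In CD4lo the sums were 135 and 136 CPM for these and 41.3 and 51.5 CPM for NK cell markers. The filter took in all groups. In a fit of the 4 libraries alone, 2 of the 6 NK cell markers were tested and 2 called higher. Of the 6 gamma delta markers 1 was tested in that fit and 1 called higher. For markers too low to be tested there, the absence of a call does not show the absence of a change. Markers of NKT and innate-like T cells gave 4 higher and 1 lower of 6, and their factor Zbtb16 fell (-2.66 ± 0.74) and follows the L mark. Plac8, also used for recent thymic emigrants, rose by 3.20 ± 0.59. Dendritic cell markers gave 4 higher and 1 lower of 9, among them the MHC class II genes H2-Ab1 and H2-Aa that B cells share. Of erythroid markers 1 of 4 rose (Hba-a1, 1.44 ± 0.48). No plasma cell marker of 4, neutrophil marker of 1 or platelet marker of 1 tested was called. The 1 lower call among NKT and innate-like markers became 0 without DP 2 or WT CD4 2. The 1 higher call among erythroid markers became 0 without DP 1 or DP 2. Zbtb16 kept its call in 9 of 13 alternatives, not without DP 2 (-2.03) or WT CD4 2 (-1.99), and had a fold change of -3.63 without DP 1. Plac8 had a fold change of 2.40 without WT CD4 1 and 7.79 without WT CD4 2, with no count left in WT CD4. Hba-a1 kept its call in 6 of 14 alternatives, not without DP 1 (1.70), DP 2 (1.14) or WT CD4 1 (0.82), and had a fold change of 3.003 without WT CD4 2.

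**Figure D5:**
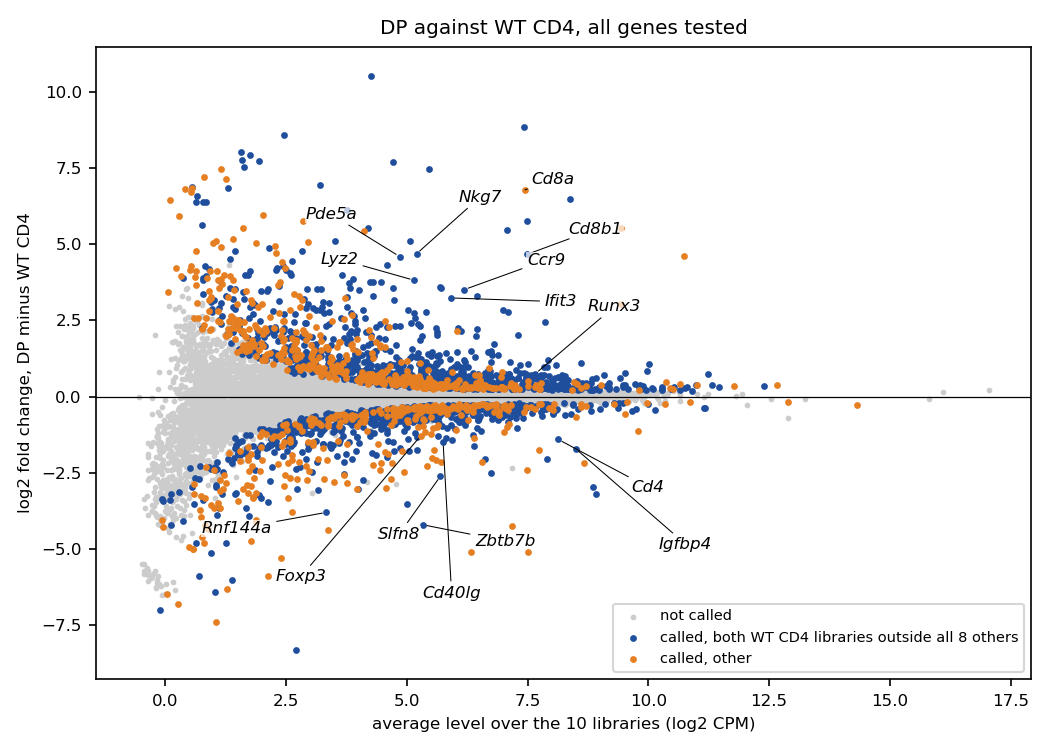
Each point is 1 of the 12193 genes, with the average log2 CPM on the x axis and the log2(DP/WT CD4) fold change on the y axis, in blue where the gene was called and both WT CD4 libraries lie outside all 8 others, in orange where it was otherwise called and in grey where it was not. Blue holds 928 of the 1349 higher and 669 of the 983 lower genes, and calls run over the whole range of levels.

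Across all genes, Pianp, Trim30c and Bend4 were among the largest rises beyond those given. Pianp, which encodes a ligand of the paired receptor PILR, stood at 0 and 0.139 CPM in WT CD4 and 13 and 10.9 CPM in DP (6.93 ± 0.58, adjusted p = 5.99e-07). Trim30c, of the Trim30 family that interferon induces, stood at 0.178 and 0.139 CPM in WT CD4 and 13.5 and 11.3 CPM in DP (6.14 ± 0.42, adjusted p = 9.52e-08). Both were near absent in WT CD4, and their means were 8.96 CPM and 24.8 CPM in WT CD8. Bend4 stood at 0.889 and 0.834 CPM in WT CD4 and 17.1 and 18.2 CPM in DP (4.33 ± 0.24). Hist1h2al had no count in WT CD4 and 32.4 and 26.4 CPM in DP, and GENCODE lists it as a processed pseudogene. Its log2 difference was 6.97 with the WT CD4 group set to 3 counts and the DP counts taken as they stand. Metazoa_SRP, the name given to copies of the signal recognition particle RNA, rose by 4.63 ± 0.17, follows the L mark and stands for many near-identical loci. Pianp had a fold change of 6.25 without WT CD4 1 and 9.21 without WT CD4 2, with no count left in WT CD4.

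Among the largest falls after Zbtb7b was Rnf144a (chr12:26300964-26415254), a ubiquitin ligase, at 28.6 and 29.7 CPM in WT CD4 and 1.57 and 2.54 CPM in DP (-3.80 ± 0.26, adjusted p = 9.05e-08), below all 8 others. Arsb, a lysosomal sulfatase, stood at 47.5 and 47.2 CPM in WT CD4 and 5.96 and 5.51 CPM in DP (-3.04 ± 0.19). Both follow the L mark. F2rl1, the protease-activated receptor PAR2, stood at 34.7 and 35.2 CPM in WT CD4 and 5.17 and 5.23 CPM in DP (-2.74 ± 0.19, adjusted p = 1.15e-07). Cpne5, a calcium-binding copine, had a fold change of -2.82 ± 0.86, and SNORA17, a small nucleolar RNA, of -2.56 ± 0.84. The salivary gland genes Dcpp3 (-3.20 ± 0.93), Dcpp2 (-2.95 ± 0.93) and Bpifa2 (-2.52 ± 0.31) complete the lowest 10. Cpne5 kept its call in 7 of 14 alternatives, not without DP 1 (-3.40), DP 2 (-2.36) or WT CD4 2 (-0.59), and had a fold change of -3.60 without WT CD4 1. SNORA17 kept its call in 7 of 14 alternatives, not without DP 1 (-2.91), DP 2 (-2.25) or WT CD4 2 (-0.37), and had a fold change of -3.34 without WT CD4 1. Dcpp3 kept its call in 12 of 14 alternatives, not without DP 2 (-2.34), and had a fold change of -5.53 without DP 1. Dcpp2 kept its call in 12 of 14 alternatives, not without DP 2 (-2.08), and had a fold change of -5.36 without DP 1. Bpifa2 had a fold change of -1.78 without WT CD4 2.

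Of 16 genes tested at and around the Zbtb7b locus 2 rose and 2 fell, against 11.1% and 8.06% of all genes. Zbtb7b was among those that fell, and the median of the 16 was -0.09. Adam15, a neighbour at low counts, fell (-1.26 ± 0.41), and Pbxip1 rose by 0.29 ± 0.086. Of 4 Y-linked genes tested none was called, and their RNA was present in all 4 libraries. The 2 genes at the locus called higher became 1 without DP 1, DP 2, WT CD4 1 or WT CD4 2, and the 2 called lower became 1 without DP 1, DP 2 or WT CD4 2. Of Y-linked genes, 1 was called higher without WT CD4 2. Adam15 kept its call in 8 of 14 alternatives, not without DP 1 (-1.36), DP 2 (-1.14) or WT CD4 2 (-1.08). Pbxip1 kept its call in 8 of 14 alternatives, not without DP 1 (0.33), DP 2 (0.25), WT CD4 1 (0.31) or WT CD4 2 (0.28).

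Ribosomal protein genes rose in 18 of 43 and fell in 1, with a median of 0.19. Rps27 rose from 485 and 479 to 714 and 774 CPM (0.63 ± 0.066) and Rps7 fell from 979 and 828 to 592 and 616 CPM (-0.58 ± 0.090). Both follow the L mark. Rpl10 rose by 0.43 ± 0.081, and Rplp1 by 0.41 ± 0.13. Mitochondrially encoded genes fell in 7 of 12 and rose in none, with a median of -0.26, as in mt-Nd3 (-0.60 ± 0.13), mt-Co3 (-0.45 ± 0.078) and mt-Cytb (-0.36 ± 0.070). Of 12 heat shock genes 2 rose and 2 fell, against 11.1% and 8.06% of all genes. Hspa1b fell from 39.1 and 34.2 to 22.3 and 20.6 CPM (-0.77 ± 0.13), as did its neighbour Hspa1a (-1.19 ± 0.24), which follows the L mark, and Dnajb1 rose by 0.75 ± 0.088 and Hspa5 by 0.34 ± 0.072. The 18 ribosomal protein genes called higher became 10 without DP 1 or WT CD4 2 and 5 without DP 2. The 7 mitochondrial genes called lower became 4 without DP 1. The 2 heat shock genes called higher became 1 without DP 2. Rplp1 kept its call in 7 of 14 alternatives, not without DP 1 (0.45), DP 2 (0.39) or WT CD4 2 (0.20). Hspa5 kept its call in 13 of 14 alternatives, not without DP 2 (0.30).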

How the data were processed

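The authors sorted the cells into Trizol LS and made directional libraries from 10 ng of total RNA with a pico-input kit and depletion of ribosomal cDNA, per the labels' protocols. The deposited values are raw counts of reads by gene symbol. Per the submitters' processing notes the authors aligned with TopHat2 and counted with HTSeq on mm10. Versions, annotation and strand setting are not given in the sources used here. A spreadsheet had turned 25 symbols into dates, which were kept. Library totals were 6511952 and 7174290 counts in DP and 5626750 and 6944197 in WT CD4, and 5055956 to 7417789 over all 10 libraries.

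With R 4.3.3 and edgeR 4.0.16, genes were filtered with filterByExpr by group (12193 genes, 99.7% of counts), scaled by TMM and fitted in 1 quasi-likelihood model with all 10 libraries (5 residual degrees of freedom), tested two-sided with Benjamini-Hochberg adjustment over all genes at 0.05. An exact permutation test of 2 libraries against 2 reaches p = 0.333 at best and was not used. Without molecular identifiers, a count of 0 allows up to 3 counts, for counting error only. The script was tested on simulated data. The mean chi-square per gene between the libraries of a group was 15.1 in WT CD4 and 3.48 in DP, over genes with at least 20 counts. Alternatives used limma 3.58.1 and DESeq2 1.42.0.

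The comparison, its gene lists and the rule for named genes were chosen with earlier results of these data known. The rule takes Zbtb7b, Cd4, Cd8a, Cd8b1 and Runx3, the 10 highest and 10 lowest called genes without overlap and with a mean log2 CPM of 3 or more, and in each list up to 4 called members with a mean log2 CPM of 2 or more and its key members. Some genes that the rule takes are not reported here. Other members named in the text, and the sequences shown, were chosen after their values were seen. Positions come from GENCODE M21 and promoter sequences from RefSeq (GRCm38.p6).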

Additional observations from a re-analysis of the deposited data

How the results depend on the processing

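The edgeR fit with all libraries made 2332 calls (1349 higher, 983 lower, 917 with a fold of at least 2). DESeq2 made 1458 (913, 545 and 720), of which 1451 are among the 2332 in the same direction. The totals that follow are not limited to genes among the 2332. Leaving out 1 library gave 1254 to 2002 calls, 828 to 1171 higher, 426 to 831 lower and 631 to 943 with a fold of at least 2, the lowest without the second DP library, with 1367 without the first DP library. The other scalings, voom, the filters and a fit of the 4 libraries gave 2055 to 2549. Without the second WT CD4 and first CD4hi libraries, an alternative chosen after seeing the data, 2109 were called (1255 higher, 854 lower, 1013 with a fold of at least 2). With no filter the median of all genes moved to -0.21, and changes there are relative to it.

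The labels do not say whether same-numbered libraries share an animal or a day, and the correlation of their deviations was -0.09 for DP with WT CD4. With the replicate number as a block, 2088 genes were called (1247 higher, 841 lower, 827 with a fold of at least 2).

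Among named genes, 34 calls were lost with DESeq2, 10 with the 4 libraries alone and 20 to 41 when 1 library was left out. Signs turned in 9 genes that were not called, and the cause was not tested. Leaving out 1 library, or the second WT CD4 and first CD4hi libraries together, gave a log2 fold change of -0.058 to 0.084 for B2m, -0.054 to 0.023 for Cd44, -0.10 to 0.070 for Bcl2l11, -0.11 to 0.055 for Ldha, -0.12 to 0.026 for Cd24a, -0.19 to 0.0063 for Nr4a1, -0.023 to 0.15 for Cbfb, -0.053 to 0.085 for Ifnar1 and -0.68 to 0.15 for Ncr1. With upper-quartile scaling B2m was -0.0076 and Ifnar1 -0.0044. With no filter Cd44 was 0.024, Bcl2l11 0.022 and Ldha 0.0071. B2m was -0.0061 without the second WT CD4 library and -0.0080 without that and the first CD4hi library.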

Other observations

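Some genes set DP apart from all 8 other libraries, not from WT CD4 alone. These were taken after values were seen, as the called genes farthest from the mean of the 8. Above the 8 were Lyz2, C3, Apoe, Axl and Cybb, which macrophages express, with Lyz2 at 94.5 and 103 CPM in DP against 6.22 to 25.9 CPM in the 8, and Apoe, which carries lipids, at 52.5 and 44.5 CPM against 11.4 to 17.5 CPM. C3, the central complement component, was at 26.2 and 27.7 CPM against 2.84 to 8.62 CPM. These moved with the macrophage markers, and their part in other results was not tested. Wdfy4, a gene of cross-presentation, Hist1h2af, Hist1h1b and Dntt were also above all 8. C3 had a fold change of 3.23 without WT CD4 2, and Hist1h2af had a fold change of 3.52 without WT CD4 1.

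Below all 8 were Igfbp4, at 174 and 175 CPM against 186 to 606 CPM, and Pde2a, which degrades cyclic AMP and GMP, at 39.2 and 36.6 CPM against 55.3 to 103 CPM. Klhdc2, a substrate receptor of a ubiquitin ligase, was at 31.8 and 28.8 CPM against 40.9 to 69.8 CPM. Sytl2, a partner of Rab27a in vesicle transport, was at 18.5 and 16.1 CPM against 19.6 to 56.3 CPM, and its levels follow the L mark. D8Ertd82e, Coro2a, Slc17a9 and Tnfrsf22 were below all 8 as well. Coro2a kept its call in 11 of 14 alternatives, not without DP 1 (-0.30) or WT CD4 1 (-0.29). Tnfrsf22 kept its call in 8 of 14 alternatives, not without DP 1 (-1.11), DP 2 (-0.92) or WT CD4 2 (-0.33).

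Of 293 processed pseudogenes tested, 105 were higher in DP and 20 lower, so 42.7% were called, against 18.6% of 10150 protein-coding genes. In 54 of the 293 both WT CD4 libraries lay below all 8 others, against 1268 of the protein-coding genes and 1496 (12.3%) of all genes tested. Pseudogenes share sequence with their parent genes, so these values are uncertain.

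Counts of salivary gland genes, chosen after their values were seen, differed between libraries of a group. Dcpp2 had 6907 and 7832 counts in WT CD4, 1737 and 198 in DP and 594 and 13 in CD4lo. Dcpp3, a close copy, had 7783 and 8632 in WT CD4 and 1624 and 197 in DP, Dcpp1 1389 and 2287 and 618 and 108, and Bpifa2 970 and 2884 and 322 and 354. Dcpp1 was called without DP 1 (-4.20) or WT CD4 1 (-2.51).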
